A study of Caenorhabditis elegans with 12 samples.

Results

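The abu and pqn genes of Caenorhabditis elegans encode proteins with long stretches rich in glutamine and asparagine. They were taken here as every row of a whole-worm read count table whose sequence name carries a symbol starting abu- or pqn- in the WBcel235 annotation and that has any count. Of 70 annotated genes, all with a row, 12 lie on chromosome III, where every row holds 0 (abu-13 and pqn-41 among them), and pqn-32 on chromosome II and pqn-36 on X are also listed at 0. That left 56 members, 13 abu and 43 pqn genes, of 27928 rows, or of 19231 rows with any count. They lie on chromosomes I (8 genes), II (8), IV (10), V (19) and X (11), and all 56 are annotated as protein-coding.

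RNA came from 12 pools of wild-type N2 worms, 6 kept on vitamin D and 6 on the vehicle dimethyl sulfoxide (DMSO), which the vitamin D plates are set against. Worms of both groups grew at 20 °C on standard agar plates, with no allele or transgene in either, and were treated for 44 h. The labels give the dose as 100 µM in one place and 100 mM in another, the worms per pool as 50 or 40, and the worms at the start as L4 larvae or as 1 day old. Pools are called by the replicate numbers of their titles, which are names and carry no order. RNA of whole worms mixes all tissues, so fewer cells of a type and less RNA per cell cannot be told apart.

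The abu genes were named for being activated when the response to unfolded proteins in the endoplasmic reticulum (ER) is blocked, and the pqn genes for their prion-like, Q/N-rich domains. Many abu genes and some pqn genes are close paralogs that encode secreted, cysteine-rich proteins. These are made in the pharynx, the feeding organ, in step with the molting cycle, and take part in the cuticle that lines it. Other pqn genes share only the Q/N-rich stretch and have unrelated roles in many tissues. The ER stress arm of IRE-1 and XBP-1 named in the title of the series is the arm in whose absence the abu genes were found, which makes their transcripts of interest here.

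The vitamin D libraries held 31383203 to 38720736 counted reads and the vehicle libraries 30203731 to 35230983. Levels are given as CPM, read counts scaled to library size with TMM factors, which adjust for library composition. Vehicle pools 2 and 3 stood apart from the other vehicle pools over the whole table, and the abu genes were among those that differed. For 26 of the 51 members tested (51%), vehicle pools 1, 4, 5 and 6 all lay above vehicle pools 2 and 3, against 30% of all 13460 tested genes. Any mean over the 6 vehicle pools therefore joins pools that differ, and many values are given pool by pool. Where only a mean or a median with range is given, the vehicle pools can still be split. In pqn-21 and pqn-87, for example, vehicle pools 2 and 3 lay above the other vehicle pools.

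**Figure D1:**
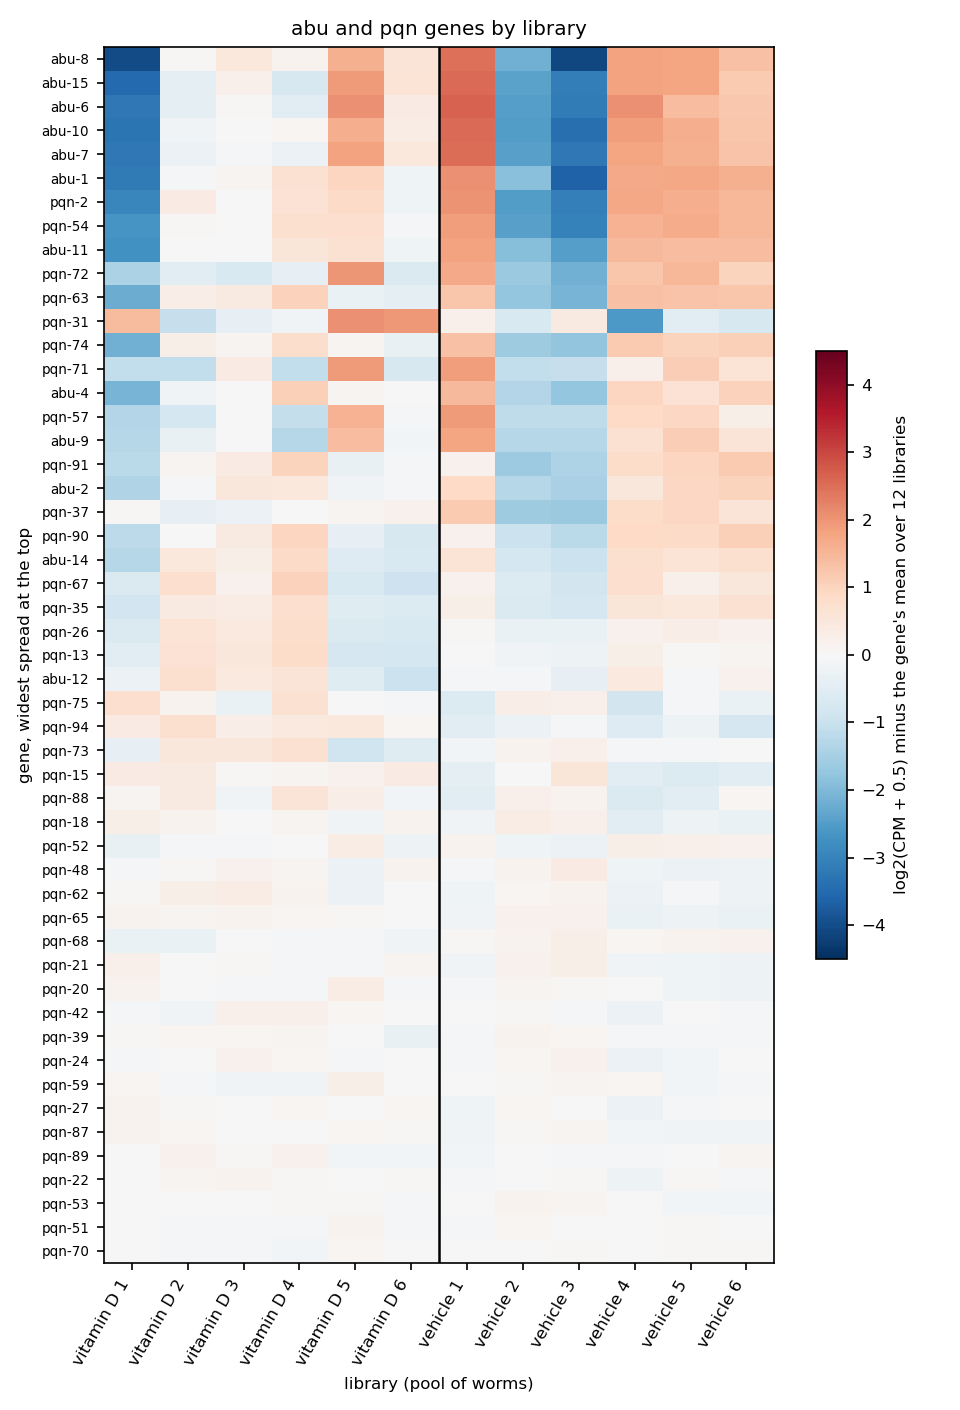
Each row is one of the 51 tested abu and pqn genes and each column one pool, with vitamin D pools left of vehicle pools; colour gives log2(CPM + 0.5) minus the gene's mean over the 12 pools. The genes at the top are blue in vitamin D pool 1 and in vehicle pools 2 and 3, and the rows at the bottom are nearly white throughout.

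The 56 members covered a wide range of abundance. To compare genes, CPM was divided by exon length in kilobases. On this scale abu-14 (ZK1067.7, chromosome II, 9225186 to 9227214) had the highest mean, 291 CPM per kb over the 12 pools. ABU-14 is a component of the pharyngeal cuticle and is needed to form the grinder. It was followed by pqn-59 with 175, pqn-52 with 139, pqn-53 with 121, pqn-22 with 108 and pqn-74 with 92.2 CPM per kb. The PQN-59 protein is the worm relative of human UBAP2L, a protein of stress granules. The next in order were pqn-87 with 73.1, pqn-51 with 68.6, pqn-89 with 59.2 and pqn-70 with 58.2 CPM per kb. The order among neighbours here is loose, since abu-14 alone ranged from 149 to 657 CPM between vitamin D pools. Of these 10 genes, abu-14 was the only one with an abu symbol. Another 5 members were too low to test. They were pqn-16, with at most 14 reads in a pool, and the 4 neighbours pqn-76, abu-5, pqn-78 and pqn-79 on chromosome IV, with at most 11.

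The members fell into kinds by how much they varied between pools, measured as the standard deviation (SD) of log2(CPM + 0.5) over the 12 pools. The limits of 1 and 0.25 used for these kinds were set with the values known, so the kinds are a description. An SD of at least 1 was found for 17 of 51 tested members (33.3%), against 3.83% of all tested genes. An SD under 0.25 was found for 18 members (35.3%), against 47.3% of all tested genes, and 16 lay between. The wide kind held 9 of the 12 tested abu genes, and the steady kind held none of them but 18 of the 39 tested pqn genes. Median SDs were 1.75 for abu genes, 0.39 for pqn genes and 0.26 for all tested genes.

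The 17 wide members shared a profile, with exceptions that are named. In 14 of them vitamin D pool 1 and vehicle pools 2 and 3 were the lowest of the 12, an order found in 37.3% of all tested members and in 8.15% of all tested genes. The order was read from these same values, and its share among all genes with an SD of at least 1 was not counted. In pqn-71 and abu-9 other pools were also at 0, and pqn-31 behaved differently. Vehicle pool 1 was the highest pool for 13 of the 17, a share not counted over all tested genes. The 8 with the largest SD were abu-8, abu-15, abu-6, abu-10, abu-7, abu-1, pqn-2 and pqn-54.

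The gene abu-8 (C03A7.14, V, 5192995 to 5194608) had the largest SD of all members, 2.24. It had 0.355, 13.8, 18.5, 15.04, 41.9 and 19.98 CPM in vitamin D pools 1 to 6, against 76.6, 2.61, 0.305, 47.9, 46.9 and 34.2 CPM in vehicle pools 1 to 6. The lowest values in each group, in vitamin D pool 1 and vehicle pool 3, were nearly equal, and the highest pool lay 118-fold above the lowest on vitamin D and 251-fold on vehicle. Levels of abu-6 (C03A7.7, V, 5160678 to 5161892) were 0.0273, 3.16, 4.55, 2.91, 20.1 and 5.79 CPM in vitamin D pools 1 to 6, against 30.1, 0.373, 0.061005, 19.8, 12.5 and 10.997 CPM in vehicle pools 1 to 6. Its lowest values rest on 1 read in vitamin D pool 1 and 2 reads in vehicle pool 3, so the size of the gap is loose there. The groups overlapped in both genes, though for abu-8 vehicle pools 1, 4 and 5 lay above every vitamin D pool.

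The neighbours of abu-6 moved with it. The genes abu-15, abu-6 and abu-7 lie together on chromosome V within 6181 bp (5158602 to 5164782), with abu-15 and abu-6 tail to tail across a gap of 770 bp. Transcripts of abu-15 stood at 0.164, 5.098, 8.23, 4.02, 27.8 and 11.05 CPM in vitamin D pools 1 to 6, against 43.5, 0.916, 0.366, 25.9, 25.2 and 16.6 CPM in vehicle pools 1 to 6. Those of abu-7 stood at 0.218, 5.07, 5.799, 5.097, 22.7 and 8.801 CPM in vitamin D pools 1 to 6, against 37.7, 0.713, 0.214, 22.2, 19.5 and 15.9 CPM in vehicle pools 1 to 6. In all 3 genes vitamin D pool 5 held the top value of its group and vehicle pool 1 that of the vehicle group. Mean levels of the run were close, at 11.2, 7.88 and 8.18 CPM per kb in that order. How reads that match several paralogs were counted is not stated, so the separate levels of these near relatives are uncertain.

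The second close pair is abu-1 (AC3.3) and pqn-2 (AC3.4), which lie head to head on chromosome V across 615 bp (10380340 to 10384063) and have coding regions of the same length, 1275 bp. The gene abu-1 had 1.17, 14.1, 16.1, 24.2, 29.5 and 12.8 CPM in vitamin D pools 1 to 6, against 61.99, 3.67, 0.732, 49.5, 50.9 and 45.5 CPM in vehicle pools 1 to 6. Its neighbour pqn-2 had 1.201, 16.3, 12.4, 20.1, 23.6 and 10.9 CPM in vitamin D pools 1 to 6, against 53.02, 1.799, 1.07, 42.95, 39.9 and 36.6 CPM in vehicle pools 1 to 6. The pools kept nearly the same order in both genes, and in both, vehicle pools 1, 4, 5 and 6 lay above all 6 vitamin D pools. Per kb the means were 18.4 for abu-1 and 15.5 for pqn-2. Head-to-head neighbours were also found in pqn-57 and abu-9 on X, with a gap of 1121 bp and means of 0.884 and 0.955 CPM per kb, and in pqn-90 and pqn-91 on chromosome IV, with 644 bp and 0.926 and 1.07 CPM per kb.

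Not all wide members lie in such groups. The gene abu-10 (F35A5.3, X) had 0.382, 7.09, 8.07, 8.48, 25.9 and 10.2 CPM in vitamin D pools 1 to 6, against 48.9, 0.984, 0.305, 31.2, 25.99 and 19.96 CPM in vehicle pools 1 to 6. The lowest pools and the highest pool of each group were those of the abu-6 run, on another chromosome. The gene abu-11 (T01D1.6, II, 192509 to 194558), whose overexpression is known to extend worm lifespan, was more abundant. It had 4.78, 33.4, 34.8, 50.1, 54.4 and 29.999 CPM in vitamin D pools 1 to 6, against 122, 8.65, 5.67, 95.2, 89.4 and 90.8 CPM in vehicle pools 1 to 6. Vitamin D pool 1 was the lowest of the 12, and every other vitamin D pool lay between vehicle pools 2 and 3 below and the other vehicle pools above. The same arrangement held for pqn-54 (R09B5.5, V), with 3.22, 23.7, 23.2, 37.9, 39.1 and 21.5 CPM in vitamin D pools 1 to 6, against 85.5, 3.801, 2.29, 68.2, 72.8 and 64.5 CPM in vehicle pools 1 to 6, apart from vitamin D pool 1, which lay between vehicle pools 2 and 3. In all, 6 wide members had vehicle pools 1, 4, 5 and 6 above every vitamin D pool: abu-1, pqn-2, pqn-54, abu-11, pqn-63 and pqn-74. So did 2 of the 16 members between the kinds and 1 of the 18 steady members. The share over all tested genes was not counted.

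**Figure D2:**
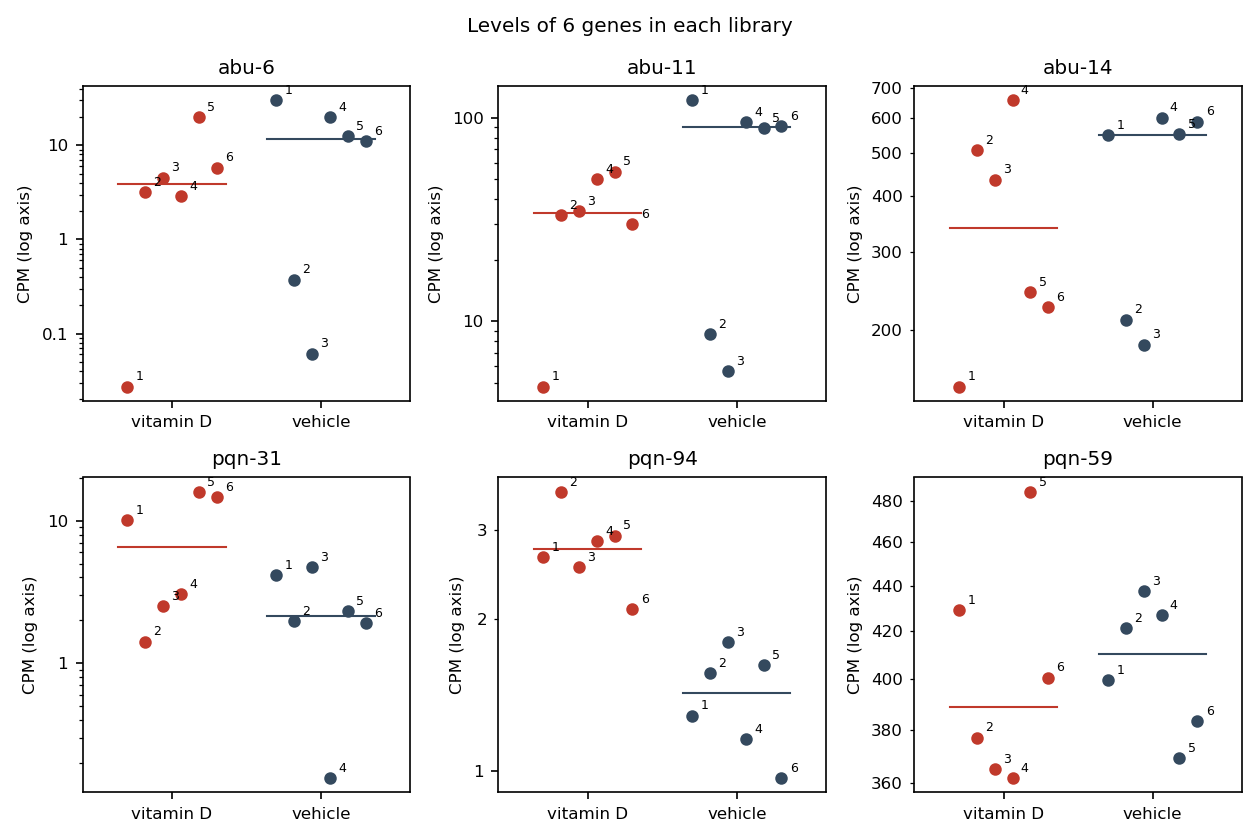
Levels in CPM on log axes for 6 genes, with 1 point per pool labelled by its pool number, vitamin D pools in red left of vehicle pools in dark blue, and a line at each group's median. In abu-6 the pools run from 0.0273 to 20.1 CPM on vitamin D and from 0.0610 to 30.1 CPM on vehicle, whereas the pqn-94 groups do not overlap and pqn-59 stays between 362 and 484 CPM.

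Within the vitamin D pools the wide members split by which pool was highest. For 14 of the 17 it was vitamin D pool 5, and for abu-4, pqn-63 and pqn-74 it was vitamin D pool 4. How often each pool was highest over all tested genes was not counted. The clearest case of the first sort was pqn-72 (W01B11.5, chromosome I), at 3.49, 7.197, 6.23, 7.85, 42.2 and 6.396 CPM in vitamin D pools 1 to 6, against 34.4, 2.85, 1.89, 25.3, 29.7 and 21.2 CPM in vehicle pools 1 to 6. Vitamin D pool 5 was the highest of all 12 pools there, with vehicle pool 1 next. Of the second sort, pqn-74 (W02A2.3, IV, 13329507 to 13331406) had 23.2, 129.6, 117, 185, 115 and 84.9 CPM in vitamin D pools 1 to 6, against 263, 34.95, 30.7, 240.4, 214 and 227 CPM in vehicle pools 1 to 6. Its vitamin D pool 5 was no higher than pools 2 and 3 of that group.

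The member that broke the pattern was pqn-31 (F21C10.8, V, 9109581 to 9111013). It had 10.1, 1.42, 2.53, 3.07, 15.98 and 14.7 CPM in vitamin D pools 1 to 6, against 4.15, 1.97, 4.73, 0.156, 2.32 and 1.903 CPM in vehicle pools 1 to 6. Vitamin D pools 1, 5 and 6 lay above all vehicle pools, while vitamin D pools 2, 3 and 4 lay among them, and vehicle pool 4 was far below the rest with 5 reads. The fitted log2 fold change was 1.65 (SE 0.72), the largest of the members, with an edgeR adjusted p of 0.272.

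The 16 members of middle spread often showed another order, read from these same values and not counted over all tested genes. In 10 of them vitamin D pools 2, 3 and 4 all lay above vitamin D pools 1, 5 and 6, against 2 of the 17 wide and 5 of the 18 steady members. The most abundant was abu-14, with 149, 507, 435, 657, 243 and 225 CPM in vitamin D pools 1 to 6, against 548, 211, 185, 601, 551 and 589 CPM in vehicle pools 1 to 6. Vitamin D pool 4 was the highest of the 12 pools for this gene, and vitamin D pools 5 and 6 lay just above vehicle pools 2 and 3. For abu-12 (F52D1.3, X) the levels were 123, 247, 204, 225, 101 and 75.2 CPM in vitamin D pools 1 to 6, against 138, 138, 114, 201, 144 and 171 CPM in vehicle pools 1 to 6. For pqn-13 (C14C11.8, V) they were 70.5, 155, 139, 175, 58.9 and 57.4 CPM in vitamin D pools 1 to 6, against 100.1, 89.2, 83.5, 118, 102 and 109 CPM in vehicle pools 1 to 6. In these 2 genes the 6 vehicle pools lay inside the range of the vitamin D pools, so the spread was wider on vitamin D. Vitamin D pool 5 thus held the top value for the abu-6 run and one of the 2 lowest of its group for abu-12 and pqn-13.

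The 18 steady members were all pqn genes, with exon lengths from 475 to 6509 bp (median 2221 bp), against 1060 to 2054 bp (median 1295 bp) in the wide kind. They were also made of more exons, with a median of 8 exon blocks against 3 in the wide kind. The 5 with the smallest SD at a mean of at least 1 CPM were pqn-70, pqn-51, pqn-53, pqn-22 and pqn-89, with SDs of 0.062, 0.067, 0.082, 0.10 and 0.12. The gene pqn-70 (T19B10.4, V) had 129.8, 122, 120.4, 118, 136 and 125 CPM in vitamin D pools 1 to 6, against 131, 129, 132, 128, 133 and 131 CPM in vehicle pools 1 to 6. For pqn-51 (K11D12.2, V) it was 111 ± 6.68 CPM on vitamin D and 114 ± 3.69 CPM on vehicle (SD, n = 6 and 6). The level of pqn-53 (R07B7.3, V) was 197 ± 5.82 CPM on vitamin D and 197 ± 15.7 CPM on vehicle (SD, n = 6 and 6). For pqn-59 (R119.4, chromosome I, 379071 to 381902) it was 429, 377, 365, 362, 484 and 401 CPM in vitamin D pools 1 to 6, against 399.8, 421, 438, 427, 369 and 383 CPM in vehicle pools 1 to 6. For pqn-21, pqn-22 and pqn-89 the lowest, median and highest values were 46.8, 50.5 and 58.6, 405, 425 and 453, and 105, 115 and 131 CPM on vitamin D, against 41.5, 44.4 and 58.9, 348, 394 and 426, and 104, 111 and 123 CPM on vehicle. The groups overlapped for all of these genes. The gene pqn-52, with 236, 281 and 372 CPM as lowest, median and highest on vitamin D against 249, 334 and 357 CPM on vehicle, had its lowest values in vitamin D pools 1 and 6 and vehicle pools 2 and 3.

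The comparison of vitamin D with vehicle asked whether these genes changed with treatment. Only pqn-94 rose, none fell, and 50 of the 51 tested members did not pass edgeR's quasi-likelihood test (Benjamini-Hochberg adjusted p under 0.05 over all 13460 tested genes). That is 1.96% of the members, against 3.66% of all tested genes (1.75% higher and 1.9% lower). The split over all genes was 236 higher and 256 lower, and scaling by total counts alone gave 507 higher and 223 lower. At an unadjusted p under 0.05 there were 3 higher members and 1 lower of 51, against 16.7% of all tested genes. DESeq2 called 1 higher (pqn-94) and 1 lower (pqn-68) of 51, against 8.67% of all tested genes. The 2 groups did not overlap for 2 of the 51 members, 1 higher and 1 lower, which is 3.92% of them, against 3.9% of all tested genes. The wide abu genes gave fold changes with large errors.

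**Figure D3:**
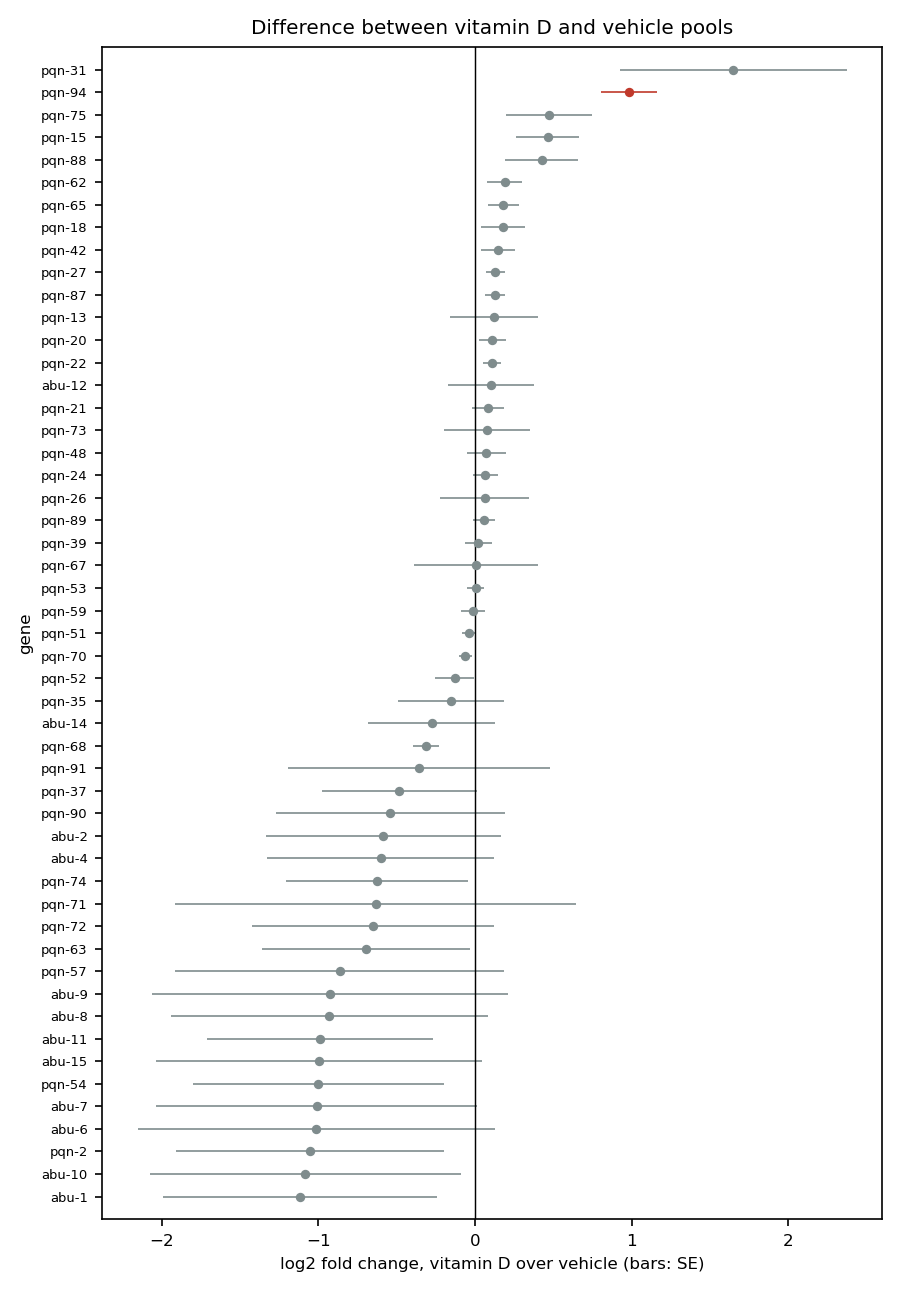
Log2 fold change of vitamin D over vehicle for the 51 tested genes, with bars of 1 SE, sorted from highest to lowest; red marks an edgeR adjusted p under 0.05. The red point is pqn-94 at 0.98, and the abu genes at the bottom, such as abu-1 at -1.11, carry SEs near 1.

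The gene pqn-94 (ZC15.8, V, 20278654 to 20279861) is short, with 382 bp of exons, and lowly expressed. It had 2.65, 3.57, 2.53, 2.85, 2.92 and 2.09 CPM in vitamin D pools 1 to 6, against 1.29, 1.56, 1.7996, 1.15, 1.62 and 0.967 CPM in vehicle pools 1 to 6. Every vitamin D pool lay above every vehicle pool. Means were 2.77 ± 0.492 CPM on vitamin D and 1.40 ± 0.314 CPM on vehicle (SD, n = 6 and 6), a rise of 1.98-fold or 0.98 in log2 with an SE of 0.18 (adjusted p = 0.0118, edgeR). These levels rest on 79 to 131 reads per vitamin D pool and 30 to 59 reads per vehicle pool. The gene passed in all 19 alternatives, with adjusted p-values from 6.54e-06 to 0.0445.

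The gene pqn-68 (T16G1.10, V) came nearest to the threshold in the other direction. It had 9.25, 9.24, 11.4, 10.5, 10.8 and 10.02 CPM in vitamin D pools 1 to 6, against 11.9, 12.6, 13.6, 12.3, 12.6 and 13.2 CPM in vehicle pools 1 to 6. Here every vitamin D pool lay below every vehicle pool, by a small margin between vitamin D pool 3 and vehicle pool 1. The log2 fold change was -0.31 with an SE of 0.08 (adjusted p = 0.0591, edgeR). Next in order of p among genes with a positive sign were pqn-15, pqn-31, pqn-87 and pqn-27. Levels of pqn-15 (C24A8.3, X) were 10.4, 10.7, 8.23, 8.64, 9.24 and 10.5 CPM in vitamin D pools 1 to 6, against 5.904, 7.91, 11.8, 5.55, 5.01 and 5.61 CPM in vehicle pools 1 to 6, which gave 0.47 in log2 fold change with an SE of 0.20 (adjusted p = 0.266, edgeR). Its vitamin D pools all lay above vehicle pools 1, 2, 4, 5 and 6, and vehicle pool 3 was the highest of the 12. For pqn-87 and pqn-27 the log2 fold changes were 0.13 (SE 0.06) and 0.13 (SE 0.06), with edgeR adjusted p-values of 0.321 and 0.325. Their means were 413 ± 17.8 and 114 ± 5.46 CPM on vitamin D, against 378 ± 33.8 and 104 ± 9.24 CPM on vehicle (SD, n = 6 and 6).

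Among genes with a negative sign, pqn-70, abu-11, abu-1 and pqn-54 followed pqn-68 in order of p. The log2 fold changes were -0.06 (SE 0.04) for pqn-70, -0.99 (SE 0.72) for abu-11, -1.11 (SE 0.87) for abu-1 and -0.999 (SE 0.80) for pqn-54, with edgeR adjusted p-values of 0.522, 0.548, 0.579 and 0.589. The mean of abu-11 was 34.6 ± 17.6 CPM on vitamin D and 68.6 ± 49.1 CPM on vehicle (SD, n = 6 and 6). For abu-6, abu-7, abu-8, abu-10 and abu-15 the log2 fold changes lay between -1.08 and -0.93, with SEs from 0.995 to 1.14. Single pools moved these values: without vehicle pool 1 they lay between -0.65 and -0.53, and without vitamin D pool 5 between -1.91 and -1.37. The abundant abu-14 had 369 ± 196 CPM on vitamin D and 447 ± 194 CPM on vehicle (SD, n = 6 and 6), a log2 fold change of -0.28 (SE 0.41), and pqn-74 had -0.62 (SE 0.58). Of 12 tested abu genes 11 had a negative value and the median was -0.96, while 23 of 39 tested pqn genes had a positive value and the median was 0.06. Over all tested genes the median was -0.003. None of the abu genes passed, so neither a change nor its absence is shown at this spread between pools.

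Vehicle pools 2 and 3 decided much of this count. With both left out, 9 members were higher and 4 lower of 51 (25.5%), against 28.6% of all tested genes (14.8% higher and 13.8% lower). The members that passed in that fit were pqn-15, pqn-18, pqn-21, pqn-27, pqn-65, pqn-75, pqn-87, pqn-88 and pqn-94 on the higher side and pqn-37, pqn-54, abu-11 and pqn-68 on the lower. For abu-11 the log2 fold change became -1.52 (edgeR adjusted p = 0.044), and for pqn-37 (F40F4.8, X) -0.97. This setting was chosen after the data were seen, and the pools left out are those with the lowest abu levels of their group. The direction for the abu genes follows in part from that choice, so these calls are no independent evidence. The low vitamin D pool 1 remained in this fit.

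Among genes of the unfolded protein response of the ER, 1 of 18 tested rose, 0 fell and 17 did not pass, with a median log2 fold change of 0.18. At an unadjusted p under 0.05 there were 10 higher and 0 lower of 18, against 8.46% higher and 8.23% lower over all tested genes. DESeq2 called 5 higher and 0 lower, against 4.09% higher and 4.58% lower over all tested genes. The gene that rose in edgeR's test, marc-6, encodes a ubiquitin ligase in the ER membrane and had 163 ± 2.60 CPM on vitamin D and 143 ± 8.98 CPM on vehicle (SD, n = 6 and 6). Its edgeR adjusted p was 0.0453. The sensor gene ire-1 had 137 ± 6.71 CPM on vitamin D and 125 ± 7.51 CPM on vehicle, and the chaperone gene hsp-4 had 745 ± 27.97 CPM on vitamin D and 650.4 ± 92.3 CPM on vehicle (SD, n = 6 and 6). Neither ire-1 nor hsp-4 passed, with edgeR adjusted p-values of 0.177 and 0.266. Between vehicle pools the summed level of the list was highest where the abu genes were lowest, at 18105 and 18625 CPM in vehicle pools 2 and 3, with 10873 to 12320 CPM in the other vehicle pools. On vitamin D the sums ran from 12957 CPM in pool 5 to 17024 CPM in pool 1. Vehicle pools 2 and 3 also had the highest vehicle sums of the engulfment, pharyngeal muscle, molting, embryo, intestine, body wall muscle and neuron lists. They did not for the sperm, oocyte and germline, pharyngeal cuticle and hypodermis lists. The high sums in these pools are thus not particular to the unfolded protein response. In 1 of the 18 genes vehicle pools 1, 4, 5 and 6 all lay above vehicle pools 2 and 3. That gene was hsp-4, with 563 and 538 CPM in vehicle pools 2 and 3 and 625 to 780.1 CPM in the others. The gene xbp-1 lies on chromosome III and is listed at 0.

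The engulfment receptor CED-1, which recognises dying cells, is known to be needed for the expression of several abu and pqn genes in worms exposed to pathogenic bacteria. Its gene, ced-1, had 83.9 ± 13.2 CPM on vitamin D and 68.7 ± 18.8 CPM on vehicle (SD, n = 6 and 6), and its log2 fold change was 0.29 with an SE of 0.17 (adjusted p = 0.434, edgeR). The highest values of each group were in vitamin D pools 1 and 6 (101 and 99.8 CPM) and in vehicle pools 2 and 3 (90.3 and 95.4 CPM), against 54.3 to 58.5 CPM in the other vehicle pools. Of 11 tested engulfment genes, 0 rose and 0 fell in edgeR's test, with 2 higher and 0 lower at an unadjusted p under 0.05 and 1 higher and 0 lower by DESeq2. Over all tested genes edgeR called 1.75% higher and 1.9% lower. The unadjusted p gave 8.46% and 8.23%, and DESeq2 4.09% and 4.58%, in that order.

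The list of pharyngeal cuticle and chitin genes was compared by median log2 deviation. By this measure it shared the low pools of the abu genes, vitamin D pool 1 and vehicle pools 2 and 3. It did not share the high vitamin D pool 5, where the median was 1.19 for the tested abu genes and -0.37 for this list. Its summed CPM was lowest in vitamin D pools 1, 6 and 5, at 779.5, 820.7 and 892.4 CPM. Vehicle pools 3 and 2 had sums of 940.6 and 996.8 CPM for the list. Of its 23 tested genes, vitamin D pool 4 was the highest of its group in 16 and vitamin D pool 5 in 2, against 3 and 14 of the 17 wide members. The shares over all tested genes were not counted. It holds the idp genes, which encode disordered proteins of the pharyngeal cuticle, and the chitin synthase genes chs-1 of the eggshell and chs-2 of the pharynx. Of 23 tested genes, 10 had an SD of at least 1, and in 17 vehicle pools 1, 4, 5 and 6 all lay above vehicle pools 2 and 3. Over all tested genes these shares were 3.83% and 30%. In 11 of the 23 the lowest 3 pools were vitamin D pool 1 and vehicle pools 2 and 3, against 8.15% of all tested genes. The gene idpc-3, for example, had 3.66, 26.1, 27.5, 44.0, 27.98 and 25.9 CPM in vitamin D pools 1 to 6, against 78.5, 5.77, 4.00, 68.1, 65.9 and 71.1 CPM in vehicle pools 1 to 6. Levels of idpp-7 were 5.16, 24.2, 17.9, 29.98, 12.5 and 9.17 CPM in vitamin D pools 1 to 6, against 44.0, 7.06, 4.61, 50.7, 47.1 and 45.3 CPM in vehicle pools 1 to 6. Other genes of the list ran the opposite way between vehicle pools. The chitinase gene cht-1 had 12.05 and 11.1 CPM in vehicle pools 2 and 3, against 3.09 to 5.85 CPM in the other vehicle pools. For idpp-2 the levels were 10.96 and 8.602 CPM in vehicle pools 2 and 3, against 6.99 to 8.32 CPM in the other vehicle pools. The examples idpc-3, idpp-7, cht-1 and idpp-2 were all singled out after their values were seen.

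In the treatment comparison 0 of these 23 genes rose, 1 fell and 22 did not pass, with a median log2 fold change of -0.47. At an unadjusted p under 0.05 there were 0 higher and 2 lower, and DESeq2 called 0 higher and 1 lower. Over all tested genes edgeR called 1.75% higher and 1.9% lower. The unadjusted p gave 8.46% and 8.23%, and DESeq2 4.09% and 4.58%, in that order. The gene that fell was ttr-16, a transthyretin-related gene, with 494 ± 29.2 CPM on vitamin D and 604 ± 62.6 CPM on vehicle (SD, n = 6 and 6, edgeR adjusted p = 0.0446). The chitin synthase gene chs-2 followed the middle kind instead, with 78.7, 109, 101, 121, 54.2 and 62.9 CPM in vitamin D pools 1 to 6, against 71.4 to 82.8 CPM over the vehicle pools.

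**Figure D4:**
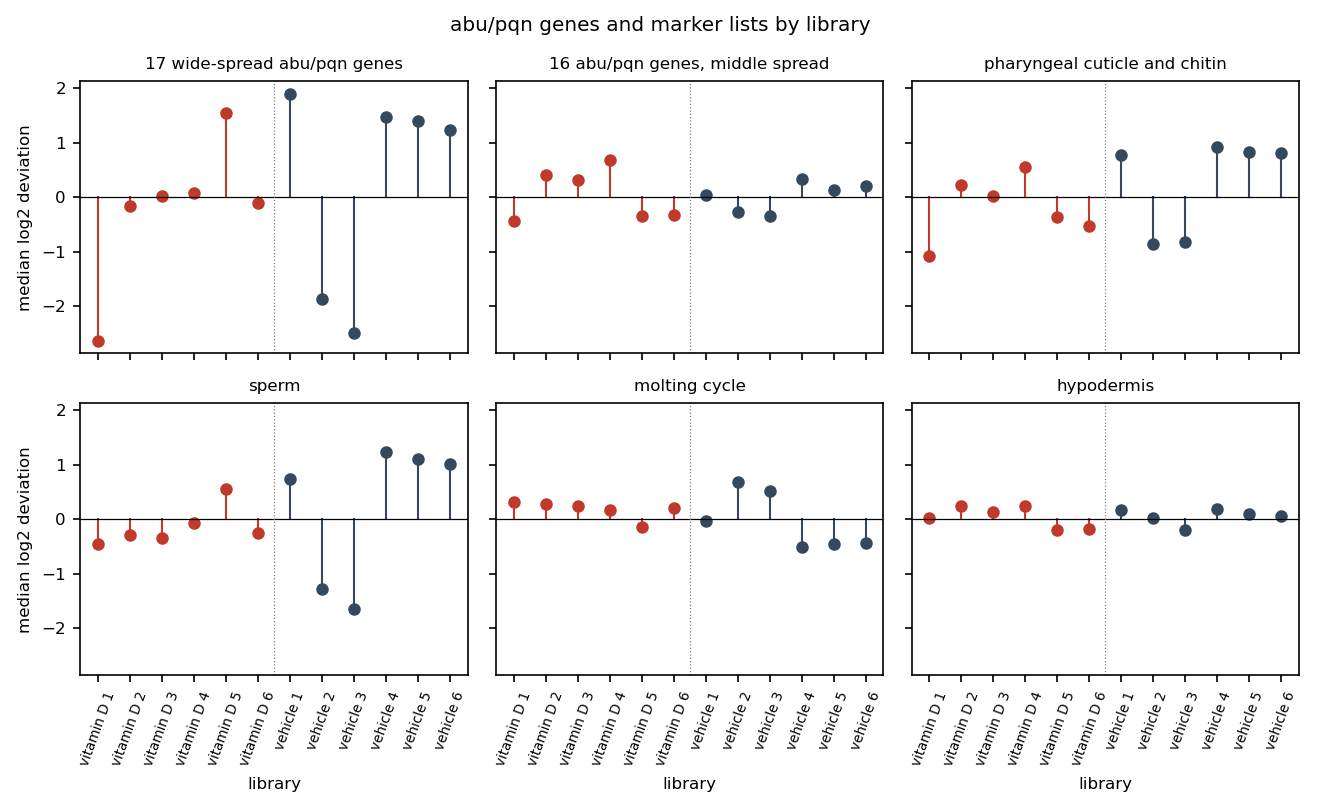
Median log2 deviation from the gene means, in each of the 12 pools, for 2 kinds of abu and pqn genes and 4 gene lists, with vitamin D pools in red left of vehicle pools in dark blue. The wide-spread genes reach -2.64 in vitamin D pool 1 and 1.90 in vehicle pool 1, and the sperm list is lowest in vehicle pools 3 and 2, at -1.65 and -1.29.

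Other markers moved between the same pools, and their part in the abu and pqn levels was not tested. The 61 tested sperm genes summed to 2287 to 4790 CPM in vitamin D pools and 1121 to 7294 CPM in vehicle pools, with 1318 and 1121 CPM in vehicle pools 2 and 3. In vitamin D pool 1, where the wide members were at their lowest, the sperm sum was 2287 CPM, close to the 2481 to 2883 CPM of vitamin D pools 2, 3, 4 and 6. By gene, vehicle pools 1, 4, 5 and 6 all lay above vehicle pools 2 and 3 in 55 of the 61, and vitamin D pool 1 and vehicle pools 2 and 3 were the lowest in 36. Over all tested genes these shares were 30% and 8.15%. Of the sperm list, 8 genes were listed at 0, spe-6, spe-26, spe-41 and cpb-1 among them. The 34 tested oocyte and germline genes summed to 3738 to 6942 CPM on vitamin D, the highest in pool 5, and to 3462 to 6014 CPM on vehicle. There 7 genes were at 0, such as glp-1 and egg-1. In all 34 of these genes vitamin D pool 5 was the highest of its group. The same held for 44 of the 61 tested sperm genes and for 14 of the 17 wide members. How often pool 5 was the highest vitamin D pool over all tested genes was not counted. The 34 tested molting genes ran the other way between vehicle pools, with sums of 9305 to 16201 CPM on vitamin D and 7578 to 20926 CPM on vehicle, of which 20926 and 19794 CPM were in vehicle pools 2 and 3. Here 4 genes were at 0, namely bli-1, bli-2, bli-5 and fbn-1.

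Among 19 tested markers of pharyngeal muscle, marginal cells and glands, vehicle pools 1, 4, 5 and 6 all lay above vehicle pools 2 and 3 in 4, and vitamin D pool 1 and vehicle pools 2 and 3 were the lowest in 0. Their sum ran from 1919 to 2485 CPM on vitamin D and from 1821 to 2261 CPM on vehicle, with 2177 CPM in vitamin D pool 1 and 2144 and 2261 CPM in vehicle pools 2 and 3. The pharyngeal myosin gene myo-2 had 198 ± 26.5 CPM on vitamin D and 182 ± 24.0 CPM on vehicle, and the pharyngeal organ selector gene pha-4 had 1.89 ± 0.143 CPM on vitamin D and 1.71 ± 0.290 CPM on vehicle (SD, n = 6 and 6). Of the 22 genes in this list 19 were tested, of which 0 rose and 0 fell in edgeR's test, with 1 higher and 0 lower at an unadjusted p under 0.05 and 0 by DESeq2, and pgp-14 and dod-6 were at 0.

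The hypodermis list, of epidermal and cuticle collagen genes, summed to 9118, 12942, 11847, 12671, 8118 and 7668 CPM in vitamin D pools 1 to 6, against 11082 to 13396 CPM in vehicle pools. Vitamin D pools 2, 3 and 4 stood above pools 1, 5 and 6, the order seen in abu-14 and 9 other members of middle spread. The sums of the body wall muscle, neuron, embryo and pharyngeal cuticle lists had the same order, so it is not particular to the hypodermis list. Of this list 18 of 21 genes were tested and col-14, col-93 and col-119 were at 0. Sums of other tissue lists varied less: body wall muscle had 20741 to 23698 CPM on vitamin D and 20949 to 24454 CPM on vehicle, and neurons 683 to 816 CPM on vitamin D and 625 to 809 CPM on vehicle. Intestinal genes summed to 12005 to 18623 CPM on vitamin D, with the highest in pool 5, and to 12004 to 14822 CPM on vehicle. The 8 tested embryo genes summed to 1473 to 2687 CPM on vitamin D and 1623 to 3369 CPM on vehicle. Of 24 tested intestinal genes 4 rose (erm-1, cdr-1, pgp-1 and cpr-3), 1 fell (lys-7) and 19 did not pass, and of 21 tested body wall muscle genes 2 rose (unc-89 and unc-54), 0 fell and 19 did not pass. At an unadjusted p under 0.05 the intestinal list had 6 higher and 4 lower genes and the body wall muscle list 5 and 5, and DESeq2 called 6 higher and 2 lower intestinal and 3 higher and 2 lower body wall muscle genes. Over all tested genes, 3.66% passed edgeR's test, 16.7% had an unadjusted p under 0.05 and DESeq2 called 8.67%, counting both directions. In edgeR's test 0 genes rose and 0 fell in the sperm, oocyte and germline, molting, hypodermis, embryo and neuron lists. At an unadjusted p under 0.05 these lists held 0, 0, 0, 0, 1 and 4 higher and 1, 0, 1, 0, 1 and 1 lower genes in that order, and by DESeq2 0, 0, 0, 0, 1 and 1 higher and 0, 0, 0, 0, 0 and 1 lower.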

How the data were processed

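The authors deposited raw read counts per gene for the 12 pools, and a second table in CPM that equals each count divided by its library total to within 2.91e-11 and was used only for that check. The submitters' processing notes name edgeR 3.12.1; the sources used here give no aligner, counter, strand setting or genome build. Sequence names were matched to the Ensembl annotation of WBcel235 (27187 to 1 gene, 3 to several, 738 to none), which gave symbols, coordinates and exon lengths; unmatched identifiers stayed in the tests.

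Genes past filterByExpr (minimum count 10, minimum total 15) were tested with edgeR 4.0.16 in R 4.3.3: TMM factors, treatment as the only term and robust quasi-likelihood dispersions. The fit was checked on simulated counts drawn independently for each pool. That check holds no differences between pools shared across genes, such as those of vehicle pools 2 and 3. SEs come from the fit. Pools are independent per the series text, and p-values rest on how far they differ within a group. Alternatives used total counts, RLE factors, DESeq2 1.42.0, no filter, no robust moderation, a replicate block, each pool left out, and vehicle pools 2 and 3 left out.

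Genes were named by rule: those past the threshold, the 10 highest levels, the 8 widest and 5 steadiest, the 5 smallest p per direction and a fixed set of known abu and pqn genes. Further members are named as examples chosen after their values were seen. The planned grouping by protein sequence was not made. Members and lists were chosen with earlier results of these data known. Antisense overlaps with genes whose median count is above 0 span at most 74 bp, for pqn-26, except 528 bp of a pseudogene in pqn-87 with a median of 1.5 reads.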

Additional observations from a re-analysis of the deposited data

Results flagged for a closer look

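In 102 groups of 6 pools (51 tested genes in each treatment), 7 had a highest or lowest pool whose gap to the next took up more of the group's range than Dixon's critical value for 6 samples allows; chance gives about 1 in 20. All 7 were in the vitamin D group. The rate of 1 in 20 holds for independent, normally distributed values. Wide members move together between pools, so the 7 are not separate results. Vitamin D pool 5 was far above the other vitamin D pools in 6 of them, at 42.2 CPM for pqn-72 (others 3.49 to 7.85), 20.1 CPM for abu-6 (others 0.0273 to 5.79), 124 CPM for pqn-51 (others 107 to 109.8), 3.15 CPM for pqn-57 (others up to 0.741), 2.68 CPM for abu-9 (others up to 0.715) and 3.59 CPM for pqn-71 (others up to 0.894). Oocyte and germline markers, and 44 of the 61 tested sperm genes, were also highest in that pool among the vitamin D pools, a share not counted over all tested genes. Their part in these values was not tested. The lowest-pool case was pqn-39, with 25.8 CPM in vitamin D pool 6 (others 32.9 to 35.4).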

How the results depend on the processing

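The call of pqn-94 was kept in all alternatives run. The 1 higher member became 2 with total counts (adding pqn-87) and 9 with vehicle pools 2 and 3 left out, and was 1 to 2 with each pool left out in turn (pqn-15 was added without vehicle pool 3). The 0 lower members became 1 with DESeq2 (pqn-68) and 4 with vehicle pools 2 and 3 left out, and stayed at 0 with each pool left out. Over the whole table the 236 higher genes became 507 with total counts, 551 with DESeq2, 104 with the replicate block and 2036 with vehicle pools 2 and 3 left out, and the 256 lower genes 616 with DESeq2, 32 with the replicate block and 1888 with those pools left out; with each pool left out they were 146 to 308 and 109 to 317. The replicate numbers do not pair the samples throughout: same-numbered pools of the 2 groups correlated from -0.42 to 0.44 in their deviations. Vitamin D pools 4 and 5 matched the vehicle pool of their own number best (0.30 and 0.44), and the rest did not. Shared batches were not tested. With the replicate block 1 member was higher and 0 lower, and the uncalled log2 fold changes of abu-6, abu-7, abu-8, abu-10 and abu-15 were -0.32 to -0.20. Values near 0 changed sign without any call: the log2 fold change of pqn-51 (-0.04) was 0.0235 and that of pqn-59 (-0.01) 0.052 with total counts, pqn-59 was 0.0377 without vehicle pools 2 and 3, and with each pool left out pqn-53 (0.004) was -0.0202 to 0.0265 and pqn-59 -0.0695 to 0.0153. Causes were not tested. Levels under about 10 reads, as for abu-6 in its lowest pools, limit the size of the gaps given there.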
